A study of Homo sapiens with 24 samples.

Results

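YAP-TFE3, the product of a gene fusion found in epithelioid haemangioendothelioma, was compared directly with YAP5SA, a hyperactive form of the parent protein YAP, to see in which pathways the fusion and the hyperactive parent part. The comparison used 6 of the 24 libraries of the series, 3 of YAP-TFE3 and 3 of YAP5SA. Of the 60279 genes in the deposited count tables, the 20183 with a mean of at least 5 counts over these libraries were tested. Poly(A) RNA was sequenced from SW872, a long-established line from a human liposarcoma, stably transduced in triplicate with retroviral pBabeNeo vectors, selected with G418 as pooled lines, and collected 48 h after reaching confluence. YAP5SA is YAP with alanine in place of 5 serines that the LATS kinases phosphorylate. YAP-TFE3 joins the part of YAP encoded by exon 1 of YAP1, which holds the TEAD-binding domain, to the part of TFE3 encoded from exon 4 onward, which holds a transactivating domain, the basic helix-loop-helix domain and the leucine zipper. Cells with empty vector (EV) and cells with full-length TFE3, 3 libraries each and also confluent, served as reference levels. SW872 cells are not the vascular cells of the tumour in which the fusion is found, all constructs are overexpressed, and each group is a single construct in pooled lines, so the 3 libraries measure the spread between stable transductions of 1 cell line.

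In confluent cells the Hippo kinases LATS1 and LATS2 phosphorylate YAP, which keeps it out of the nucleus. Unphosphorylated YAP enters the nucleus and, lacking a DNA-binding domain, acts through TEAD factors, whose core site reads GGAATG. TFE3 belongs to the MiT/TFE family with TFEB, TFEC and MITF. These factors bind the E-box CACGTG, found upstream of many genes of lysosomes, of autophagy and of nutrient sensing by the folliculin and Rag proteins. The fusion therefore carries the TEAD-binding part of YAP and the DNA-binding part of TFE3, and YAP5SA carries only the former.

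The YAP-TFE3 libraries held between 30331854 and 35287476 counts and the YAP5SA libraries between 23184246 and 25830489, so the fusion group was sequenced more deeply. Values are given as counts-per-million values (CPM), with library sizes scaled by trimmed mean of M-values (TMM), and differences as log2 differences of YAP-TFE3 minus YAP5SA with their standard error (SE), both from the edgeR fit. A gene is called when its adjusted p is under 0.05. CPM values compare groups for 1 gene and not genes with each other. Summed markers of 6 other or related cell types were checked in the 6 libraries. The 6 mesenchymal markers summed to 1201 to 1308 CPM with YAP-TFE3 and 1203 to 1749 CPM with YAP5SA. Of the 6 adipocyte markers, ADIPOQ, CIDEC and LEP stood at or near 0 in all 6 libraries, and of the 6 melanocyte markers TYR and SOX10 had no counts. The 6 haematopoietic markers summed to 2.01 to 3.14 CPM with YAP-TFE3 and 2.71 to 3.49 CPM with YAP5SA. The 6 epithelial markers summed to 243 to 348 CPM with YAP-TFE3 and 2993 to 4021 CPM with YAP5SA, a gap carried by the keratins KRT8 and KRT18.

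The genes of the constructs were read first. YAP1 (ENSG00000137693) was counted at 162, 156 and 133 CPM in the 3 YAP-TFE3 libraries and at 249, 250.4 and 257 CPM in the 3 YAP5SA libraries, with 128 ± 13.9 CPM (mean ± SD, n = 3) in EV. The groups did not overlap, and the log2 difference was -0.75 ± 0.10 (adjusted p = 1.03e-06). TFE3 (ENSG00000068323) was counted at 290.3, 319.5 and 225 CPM with YAP-TFE3, at 185, 199.7 and 171 CPM with YAP5SA and at 119.9 ± 8.96 CPM in EV, a log2 difference of 0.59 ± 0.10 (adjusted p = 3.45e-05). All 3 fusion libraries lay above all 3 YAP5SA libraries for TFE3 and below them for YAP1. The counts of each gene add reads of the transduced cDNA to those of the endogenous gene, and the fusion holds only a part of each. WWTR1, which encodes the YAP paralogue TAZ, stood at 127, 123 and 121 CPM with YAP-TFE3 and at 70.2, 66.9 and 68.2 CPM with YAP5SA, and both lay below the 205 ± 22.5 CPM of EV (log2 difference 0.85 ± 0.083, adjusted p = 6.54e-09).

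Of the 20183 genes tested, 10772 differed between fusion and parent. This was 53.4% of the genes, with 5660 higher with YAP-TFE3 (28.0%) and 5112 higher with YAP5SA (25.3%). These shares are the background for the counts of list members. The libraries of the fusion and of YAP5SA did not overlap in 10622 of the tested genes (52.6%). This share is the background for each statement that the groups of a named gene did not overlap. A difference of at least 2-fold was seen in 2287 genes higher with the fusion and in 1688 higher with YAP5SA, and of at least 8-fold in 394 and 221. The median log2 difference over all tested genes was 0.038. Over 5 groups of genes of equal number, the median went from 0.36 at the lowest GC content of the transcript to -0.18 at the highest, and from -0.028 in the shortest genes to 0.17 in the longest. With offsets for GC content and length in the fit 10983 genes were called, and with the counts thinned to the smallest of the 6 libraries 8305. In bulk RNA fewer cells that express a gene and less RNA of it per cell cannot be told apart.

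Among protein-coding genes averaging 100 counts or more, without overlap between the groups, the 12 largest differences in each direction included genes with at most 3 counts in every library of the other construct. Within the gene lists, ranks refer to called members with a mean of at least 50 counts. NPPB (ENSG00000120937, GRCh38 chr1:11857464-11858945, minus strand), which encodes the natriuretic peptide BNP, was counted at 0.0319, 0.0309 and 0 CPM with YAP-TFE3 and at 346, 393 and 171 CPM with YAP5SA, at least 3328-fold higher with YAP5SA. KISS1, the gene of the peptide kisspeptin, and HCN4, a pacemaker channel, were at least 138-fold and 110.4-fold higher with YAP5SA. The fusion libraries were at or under 3 counts of each of these 3 genes. TINAGL1, a matrix protein, INHBB, the activin beta B subunit, TNNI1, a troponin, and MYOD1, the muscle determination factor, had log2 differences of -8.12, -6.98 (-8.05 without YAP-TFE3 replicate 3), -6.35 and -6.15. PSG5 (-6.60) and KRT81 (-6.47) ranked among them, but both belong to families of near-identical genes and their counts are uncertain.

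In the other direction, TRPC7 (ENSG00000069018, GRCh38 chr5:136212745-136365545, minus strand), a cation channel, was counted at 44.8, 41.4 and 33.2 CPM with the fusion and at 0.0471, 0.0475 and 0.0399 CPM with YAP5SA, at least 298-fold higher. DHRS9, a retinol dehydrogenase, and CST2, a cystatin, held at most 3 counts in every YAP5SA library and were at least 52.5-fold and 52.1-fold higher with YAP-TFE3. LCP1, an actin-bundling protein of blood cells, reached 194, 211 and 181 CPM with the fusion against 2.45, 2.37 and 2.35 CPM with YAP5SA. MAT1A, which makes S-adenosylmethionine in liver, reached 119.7, 133 and 151 CPM against 1.51, 1.38 and 2.03 CPM. A lack of overlap between the groups was part of the rule that picked these genes. The dynein chain gene DYNC1I1 (6.80), the calcium-binding MCTP1 (6.75), the sulfotransferase SULT1C2 (6.04) and the antigen-processing gene HLA-DMB (6.07) were also among these 12.

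**Figure D1:**
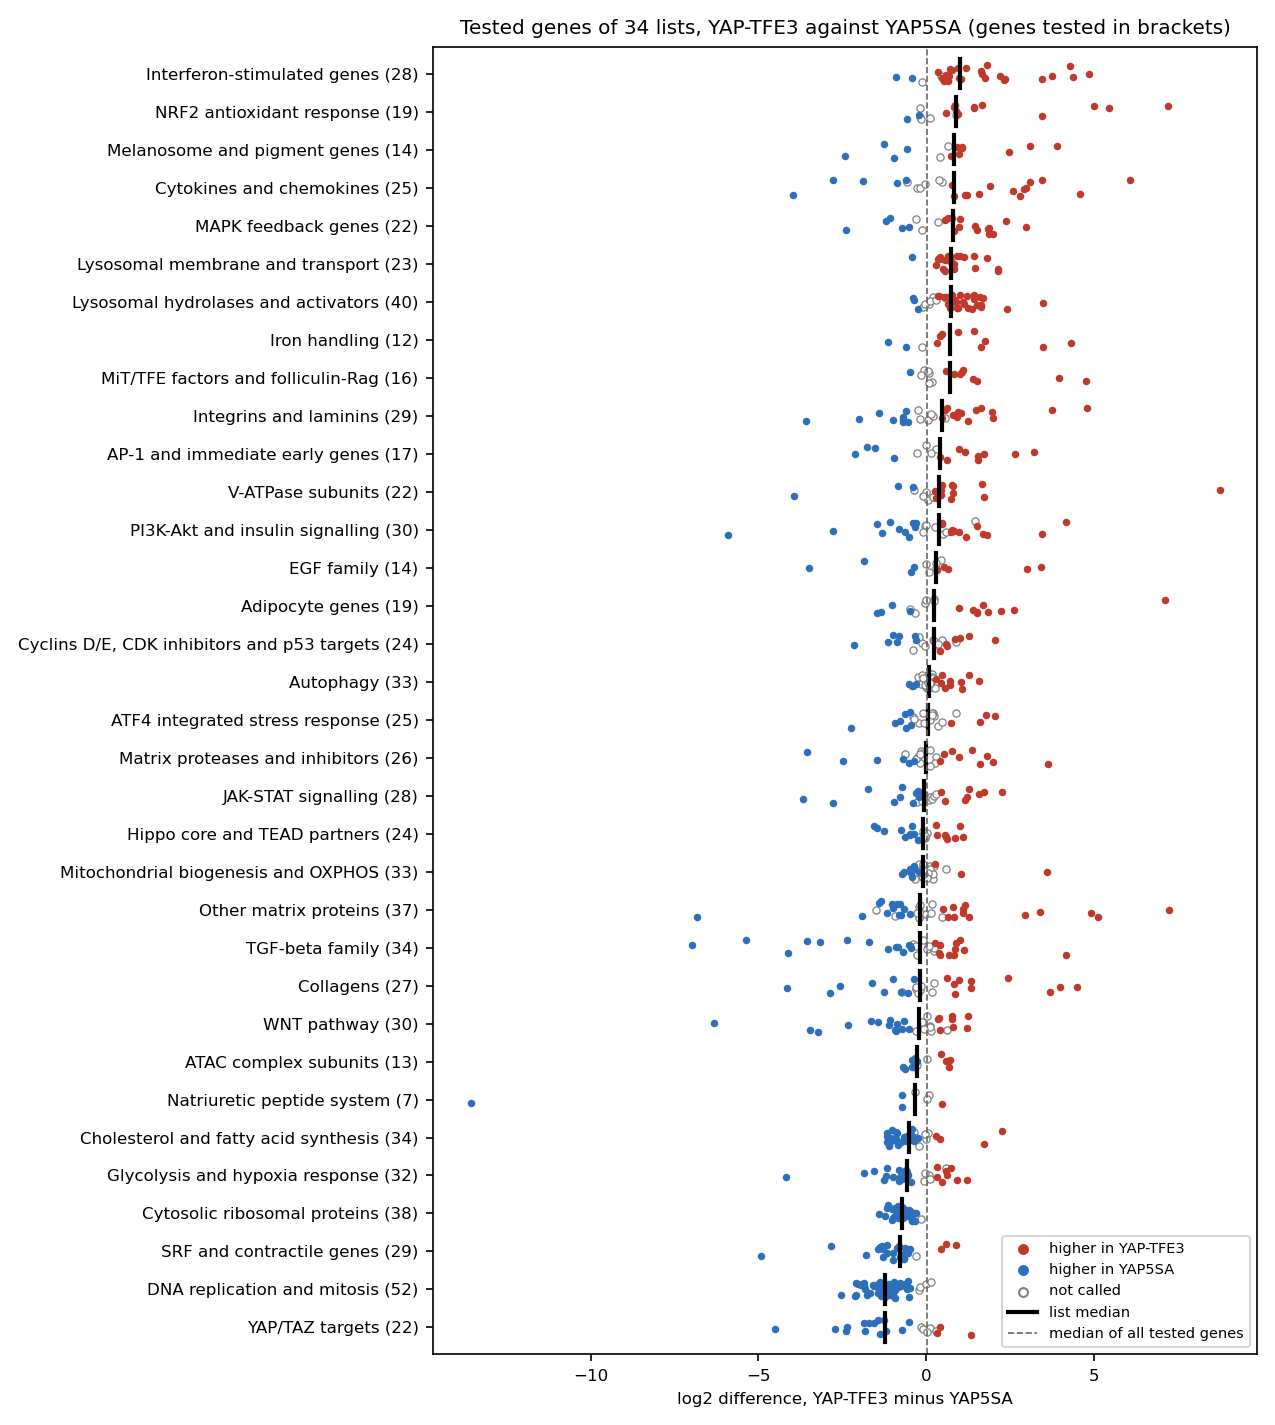
Log2 difference (YAP-TFE3 minus YAP5SA, x axis) of every tested gene of 34 gene lists (y axis, ordered by the list median), with filled points for called genes, open points for genes not called, a bar at the list median and a dashed line at the median of all tested genes. The replication, YAP/TAZ target, contractile and ribosomal protein lists lie at the bottom, with medians from -1.23 to -0.72, and the interferon, antioxidant, cytokine, MAPK feedback and melanosome lists lie at the top.

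Target genes of YAP and TAZ were mostly higher with YAP5SA. The list held 22 tested signature genes of their activity, of which 3 were higher with YAP-TFE3, 14 were higher with YAP5SA and 5 were not called, and its median log2 difference was -1.23. ANKRD1, a nuclear ankyrin repeat protein, was counted at 10.6, 8.92 and 5.68 CPM with YAP-TFE3 and at 175, 162 and 228 CPM with YAP5SA (log2 difference -4.49 ± 0.31, adjusted p = 2.11e-11). CCN1, a secreted matricellular protein, was counted at 137, 148 and 134 CPM and at 742, 727 and 724 CPM (-2.39 ± 0.11, adjusted p = 2.34e-14), and AXL, a receptor tyrosine kinase, at 131, 152 and 95.0 CPM and at 857, 876 and 732 CPM (-2.70 ± 0.18, adjusted p = 9.94e-12). In all 3 genes the fusion libraries lay below every YAP5SA library. Against the same EV libraries, ANKRD1 differed by 2.90 with YAP-TFE3 and by 7.39 with YAP5SA, CCN1 by 1.76 and 4.15, and AXL by 0.51 and 3.21, so that each was above EV under both constructs. The call of AXL with YAP-TFE3 was lost without YAP-TFE3 replicate 2 (0.35, adjusted p = 0.123 against EV). In the comparisons with EV 49.3% of all genes were called for YAP-TFE3 and 44.3% for YAP5SA. F3, tissue factor, differed from EV by 2.48 with YAP5SA and by 0.10 with YAP-TFE3, which was not called, and its direct log2 difference was -2.37. DOCK5 (-0.64) and CCDC80 (-0.48) lay below EV with the fusion and above it with YAP5SA (0.72 and 1.33).

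The exceptions to the order were few. IGFBP3, which binds insulin-like growth factors, was counted at 6.57, 7.25 and 5.39 CPM with the fusion and at 3.34, 2.61 and 1.63 CPM with YAP5SA (1.35 ± 0.27, adjusted p = 1.94e-04). MYOF, a ferlin of membrane repair, differed by 0.43 and LATS2, the kinase that restrains YAP, by 0.31. NT5E, PTPN14, RBMS3, FJX1 and ARHGEF17, with log2 differences between -0.15 and 0.31, were not called. Over the whole list the median log2 difference from EV was 0.70 with YAP-TFE3 and 1.46 with YAP5SA. Both values use the same EV libraries and are not independent of each other.

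**Figure D2:**
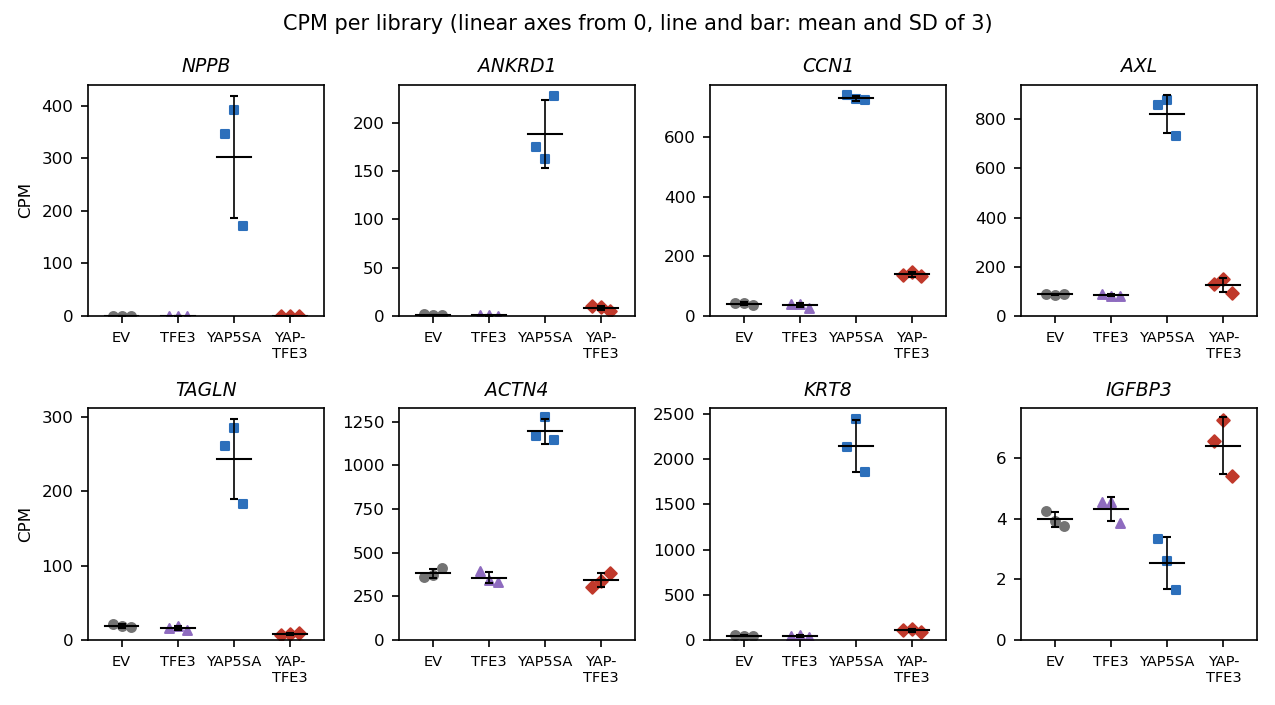
CPM of 8 genes (linear y axes from 0) in each of the 3 libraries of EV, TFE3, YAP5SA and YAP-TFE3, with a line at the mean and a bar of 1 SD. NPPB, ANKRD1, CCN1, AXL, TAGLN, ACTN4 and KRT8 are highest in all 3 YAP5SA libraries, and IGFBP3 is highest in the YAP-TFE3 libraries.

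The TEAD core was looked up in the promoters, since it is the site the constructs could share. RefSeq promoter windows of GRCh38.p14, from 250 bases before to 50 after the first listed start of the gene, were found for 13124 of the tested genes. GGAATG was present on either strand in 11.4% (1490 of 13124) of them, in 12.1% (489 of 4031) of the genes higher with YAP-TFE3, in 11.0% (394 of 3588) of those higher with YAP5SA, and in 41.2% (7 of 17, 95% Wilson interval 21.6 to 64.0%) of the YAP/TAZ targets. Among called genes of at least 2-fold the share was 14.5% (209 of 1440) with YAP-TFE3 higher and 13.6% (133 of 981) with YAP5SA higher. The 3 printed stretches of 60 bases come from the 3 targets with the largest difference whose window holds the core before the start, and show how the site sits in genes that stood higher with YAP5SA. They lie at chr10:90921183-90921242 for ANKRD1, chr1:218345124-218345183 for TGFB2, a growth factor of the TGF-beta family, and chr6:131951435-131951494 for CCN2, a matricellular protein. Each reads 5′ to 3′ on the strand of the gene, with the core or its reverse complement in capitals.
ANKRD1: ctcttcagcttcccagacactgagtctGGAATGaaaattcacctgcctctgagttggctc
TGFB2: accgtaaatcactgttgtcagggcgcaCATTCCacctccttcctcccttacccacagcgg
CCN2: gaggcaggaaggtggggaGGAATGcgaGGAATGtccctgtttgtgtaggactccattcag
The core stands 128, 185 and 95 bases before the start at its nearest match. TGFB2, counted at 75.5, 70.8 and 56.5 CPM with YAP-TFE3 and at 245, 215 and 201 CPM with YAP5SA, and CCN2, at 197, 209.6 and 143 CPM and 521, 470.1 and 481 CPM, had log2 differences of -1.70 and -1.42. A match is a description of the letters and not a bound site.

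Hippo pathway genes went both ways. Of 24 tested genes of the Hippo core and of TEAD partners, 8 were higher with YAP-TFE3 and 10 with YAP5SA, and the median, -0.090, turned to 0.029 under scaling by total counts. The 10 include YAP1 itself, whose counts hold reads of the constructs. TEAD1 was counted at 572, 535 and 414 CPM with the fusion and at 218, 209 and 281 CPM with YAP5SA (1.10 ± 0.13, adjusted p = 1.86e-07), against 222 ± 27.1 CPM in EV. All 3 fusion libraries were above all others of EV and YAP5SA. TEAD3 differed by -0.48, while TEAD2 (0.016) and TEAD4 (-0.034) were not called. The adaptors AMOT (-1.55), WWC1 (-1.47) and AMOTL2 (-1.25) and the tumour suppressor NF2 (-0.63) were higher with YAP5SA, and the TEAD cofactor VGLL4 (0.63) with the fusion. LATS1 (-0.10) and STK3 (-0.039) were not called, and STK4 differed by -0.26.

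Contractile genes were lower with the fusion than with YAP5SA in nearly the whole list. The list held targets of serum response factor (SRF) and actin cytoskeleton genes, of which 25 of 29 were higher with YAP5SA and 3 with YAP-TFE3 (median -0.77). Its median from EV was -0.057 with YAP-TFE3 and 0.88 with YAP5SA. TAGLN, an actin-binding protein of smooth muscle, was counted at 6.57, 7.84 and 9.36 CPM with YAP-TFE3, at 261, 286 and 184 CPM with YAP5SA and at 19.2 ± 2.58 CPM in EV (-4.94 ± 0.23, adjusted p = 2.54e-14). The alpha-actinin gene ACTN4 was counted at 305, 340.0 and 386 CPM and at 1165, 1277 and 1142 CPM (-1.80 ± 0.10, adjusted p = 2.86e-13). Neither gene's groups overlapped, and TAGLN lay below EV with the fusion. The kinase MYLK (-1.44), the transgelin TAGLN2 (-1.38) and SRF itself (-0.53) were also lower. ACTB (-1.18) and ACTG1 (-1.30) were lower too, with counts that near-identical copies make uncertain. CALD1, caldesmon, was the largest exception among the members with at least 50 counts (0.89), followed by ACTA2 (0.60) and the SRF cofactor MRTFB (0.46), while its paralogue MRTFA differed by -0.72. In the natriuretic peptide list, the clearance receptor NPR3 (-0.73) and the peptidase MME (-0.72) stood with NPPB, and the receptor NPR2 (0.48) was higher with the fusion.

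KRT8, a keratin of simple epithelia, was counted at 105 ± 13.9 CPM with YAP-TFE3 and at 2148 ± 289 CPM with YAP5SA, and its partner KRT18 at 191 ± 39.4 and 1408 ± 249 CPM (mean ± SD, n = 3 each). The differences were -4.35 and -2.88, with no overlap. Of the other epithelial markers, CDH1, at 0.600 ± 0.499 and 1.53 ± 0.267 CPM (-1.36), and CLDN4, at 2.79 ± 0.606 and 4.52 ± 0.281 CPM (-0.69), were called in the same direction. EPCAM, at 0.730 ± 0.138 and 0.596 ± 0.0976 CPM, was not called, and KRT19 had at most 3 counts in any of the 6 libraries. The 6 endothelial markers summed to 76.4 to 86.5 CPM with YAP-TFE3 and 25.7 to 34.9 CPM with YAP5SA. PECAM1 (1.10), CDH5 (1.90), TEK (1.25) and KDR (2.66) were higher with the fusion. VWF (-1.40) was higher with YAP5SA, and CLDN5 was not called. Mean CPM with the fusion lay below EV for KDR (18.2 and 44.8), CDH5 (20.9 and 43.2), PECAM1 (4.59 and 7.03) and CLDN5. For TEK (35.9 and 27.7) and VWF (2.12 and 1.72) it lay above EV. The part of either marker list in the results was not tested.

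The folliculin and Rag genes, which place MiT/TFE factors under nutrient control, were mostly higher with the fusion. Of 16 members of the list of MiT/TFE factors and folliculin-Rag genes, 9 were higher with YAP-TFE3 and 1 with YAP5SA (median 0.71). The 9 include TFE3 itself, whose counts hold reads of the fusion construct. RRAGD (ENSG00000025039, GRCh38 chr6:89364616-89412273, minus strand), a Rag GTPase, was counted at 98.7, 102 and 121 CPM with YAP-TFE3, at 3.86, 3.61 and 4.30 CPM with YAP5SA and at 3.61 ± 0.816 CPM in EV (4.77 ± 0.20, adjusted p = 4.17e-15). All 3 fusion libraries stood far above the rest, and YAP5SA differed from EV by 0.14, which was not called. The folliculin partners FNIP2 (1.52) and FNIP1 (1.41), FLCN itself (0.82), the GTPases RRAGB (1.10) and RRAGC (1.07) and the Ragulator subunit LAMTOR3 (1.02) were higher with the fusion, whereas LAMTOR1, LAMTOR2, LAMTOR4, LAMTOR5 and RRAGA, between -0.15 and 0.17, were not called. Of the factors besides TFE3, TFEB was lower with the fusion (-0.47), MITF was not called (-0.070), and TFEC was counted at 0.542, 0.154 and 0.200 CPM with YAP-TFE3 and at 0.0471, 0 and 0 CPM with YAP5SA, at least 2.24-fold higher. FNIP1 and FNIP2 lay above EV with the fusion (0.79 and 0.81) and below it with YAP5SA (-0.62 and -0.71).

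Lysosomal genes were higher with the fusion across enzymes, membrane proteins and the proton pump. Of 40 lysosomal hydrolases and activators 30 were higher with YAP-TFE3 and 3 with YAP5SA (median 0.75). Of 23 lysosomal membrane and transport genes 22 were higher and 1 was lower (median 0.76), and of 22 subunits of the proton pump, the V-ATPase, 14 were higher and 3 lower (median 0.39). CTSS, a cysteine protease, was counted at 76.0, 77.6 and 89.3 CPM with YAP-TFE3 and at 8.19, 6.98 and 6.66 CPM with YAP5SA (3.48 ± 0.15, adjusted p = 8.17e-15). The acid ceramidase gene ASAH1 was counted at 229, 211 and 266 CPM and 43.3, 39.4 and 49.3 CPM (2.42 ± 0.14, adjusted p = 7.02e-13). In both genes the groups were apart in every library, and with YAP5SA the log2 differences from EV were -0.73 and -0.53, the latter falling to -0.27 and losing its call with the GC and length offsets. The protease CTSO differed by 1.64. GUSB (-0.39), IDS (-0.36) and CTSZ (-0.25) were higher with YAP5SA. CTSB, cathepsin B, was not called (0.088) and lay above EV by 1.14 with the fusion and by 1.05 with YAP5SA.

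Among membrane proteins the chloride-proton exchanger CLCN5 was counted at 49.0, 47.7 and 43.8 CPM with YAP-TFE3 and at 10.9, 10.2 and 10.7 CPM with YAP5SA (2.15 ± 0.11, adjusted p = 5.53e-14). OSTM1, the partner of the exchanger CLCN7, was counted at 81.3, 66.1 and 76.1 CPM and 15.6, 14.2 and 21.1 CPM (2.13 ± 0.17, adjusted p = 4.02e-10), and the cystine exporter CTNS differed by 1.81. The sialic acid exporter SLC17A5 (1.46) came next, and ABCA2 (-0.42) was the 1 member higher with YAP5SA. Of the V-ATPase subunits with a mean of at least 50 counts, ATP6V1C1 had the largest difference, at 116, 98.5 and 129 CPM with the fusion and 33.7, 31.6 and 42.1 CPM with YAP5SA (1.68 ± 0.13, adjusted p = 1.94e-10), with no overlap. The subunits ATP6V0A1 (0.81), ATP6V1H (0.79) and ATP6V1B2 (0.76) followed. The low-count ATP6V0C differed by 1.74. Isoforms of restricted tissues split. ATP6V0D2 was counted at 2.58, 2.38 and 0.856 CPM with the fusion and not at all with YAP5SA (at least 14.5-fold higher), and ATP6V0A4 at 0.160, 0.216 and 0.285 CPM with the fusion and 4.003, 3.47 and 2.99 CPM with YAP5SA (-3.94).

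**Figure D3:**
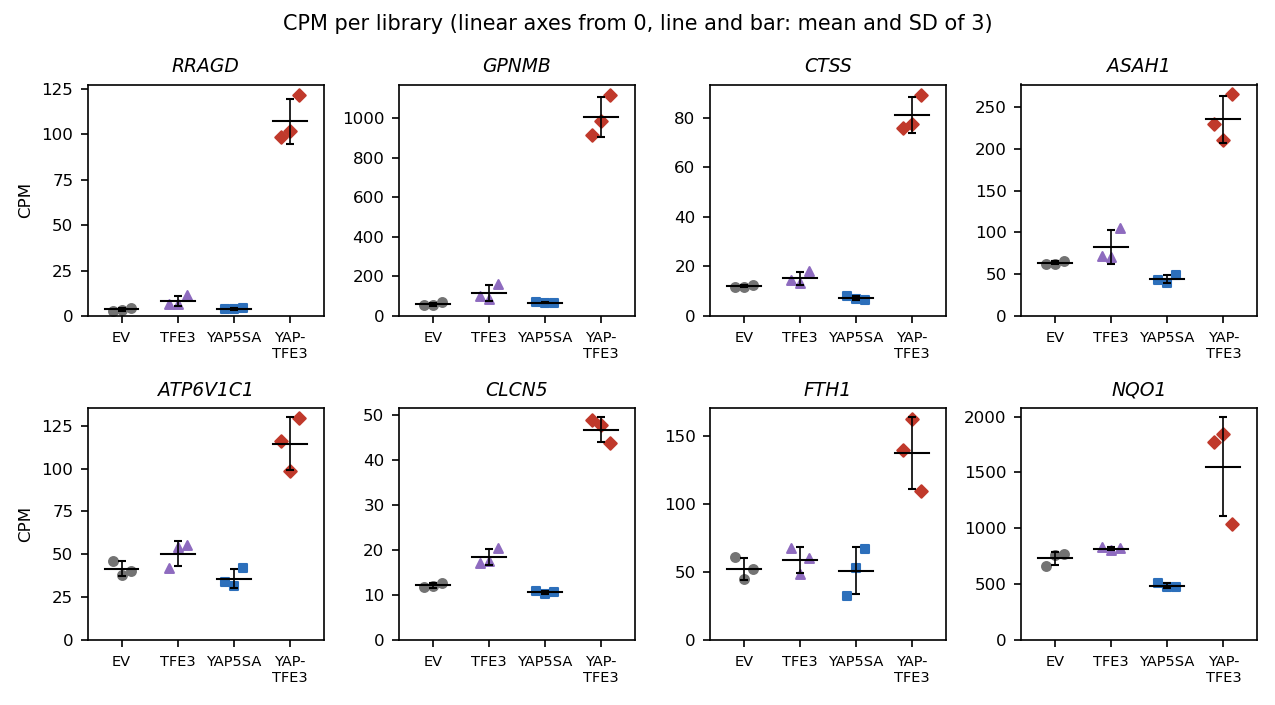
CPM of 8 genes of lysosomes, nutrient sensing, iron and antioxidant response (linear y axes from 0) in each of the 3 libraries of EV, TFE3, YAP5SA and YAP-TFE3, with a line at the mean and a bar of 1 SD. In all 8 genes the 3 YAP-TFE3 libraries lie above every library of the other groups.

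Full-length TFE3, the other parent, gave another reference for these lists. Between YAP-TFE3 and TFE3 48.8% of all tested genes were called, 25.5% higher and 23.4% lower with the fusion. In the same comparison 23 of the 40 hydrolases, 16 of the 23 membrane genes and 12 of the 22 V-ATPase subunits were higher with the fusion, with medians of 0.51, 0.67 and 0.34 beside -0.015 over all genes. RRAGD differed by 3.69, CTSS by 2.41 and ASAH1 by 1.51 between YAP-TFE3 and TFE3. The E-box CACGTG was present in 9.71% (1274 of 13124) of the promoter windows of tested genes, in 10.4% (418 of 4031) of the genes higher with the fusion, in 9.84% (353 of 3588) of those higher with YAP5SA and in 25.9% (15 of 58, 95% Wilson interval 16.3 to 38.4%) of the 3 lysosomal lists together. Its longer form TCACGTGA, which contains CACGTG, was present in 1.68% (221 of 13124), 2.56% (103 of 4031), 1.25% (45 of 3588) and 13.8% (8 of 58, 95% Wilson interval 7.16 to 24.9%). Among genes called and at least 2-fold higher with the fusion the share with CACGTG was 7.78% (112 of 1440). The 6 printed stretches of 60 bases show the box before the start in genes of the folliculin-Rag list and of the lysosomal lists. Not every member of the lysosomal lists was searched for a stretch to print, so members with larger differences may have been passed over. The stretches are examples and not a ranking. They lie at chr5:131797079-131797138 for FNIP1, chrX:55717689-55717748 for RRAGB, chr1:38859852-38859911 for RRAGC, chr6:31862915-31862974 for the sialidase NEU1, chr11:1763942-1764001 for the aspartic protease CTSD and chr20:45891275-45891334 for the carboxypeptidase CTSA, each read on the strand of the gene with CACGTG in capitals.
FNIP1: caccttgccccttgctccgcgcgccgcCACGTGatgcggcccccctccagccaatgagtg
RRAGB: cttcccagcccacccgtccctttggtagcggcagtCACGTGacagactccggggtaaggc
RRAGC: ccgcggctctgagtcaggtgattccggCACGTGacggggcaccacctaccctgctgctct
NEU1: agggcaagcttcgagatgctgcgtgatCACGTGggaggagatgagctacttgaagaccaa
CTSD: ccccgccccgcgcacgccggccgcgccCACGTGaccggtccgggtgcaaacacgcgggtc
CTSA: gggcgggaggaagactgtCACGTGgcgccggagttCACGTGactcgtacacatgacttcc
The box nearest the start lies 94, 25, 112, 126, 47 and 25 bases before it in the same order. NEU1 was counted at 73.0, 82.3 and 119 CPM with YAP-TFE3 and 31.6, 31.6 and 27.9 CPM with YAP5SA (1.59), CTSD at 329, 397 and 420.1 CPM and 122, 156 and 121 CPM (1.52), and CTSA at 219.7, 241 and 295 CPM and 92.3, 103 and 85.8 CPM (1.43). As with GGAATG, a match describes letters in a window, and no match says nothing about binding elsewhere.

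Autophagy genes were mostly not called between the constructs. Of 33 members 10 were higher with the fusion and 4 with YAP5SA, beside 28.0 and 25.3% of all genes, with a median of 0.10. Against EV 18 were higher and 3 lower with YAP-TFE3 (of all genes 25.8% and 23.5%). With YAP5SA 13 were higher and 3 lower than EV (of all genes 22.6% and 21.7%). RB1CC1, a scaffold of the initiating kinase (1.59), the receptors OPTN (1.28) and SQSTM1 (1.05) and the phosphoinositide-binding WIPI1 (1.07) were the largest. ATG7 (-0.52) and ATG4B (-0.41) were lower. Pigment cell genes, among them classic targets of MITF, were split. GPNMB, a glycoprotein of lysosomes and melanosomes, was counted at 915, 987 and 1118 CPM with YAP-TFE3, at 71.8, 65.8 and 65.5 CPM with YAP5SA and at 60.3 ± 7.42 CPM in EV (3.89 ± 0.18, adjusted p = 1.98e-14). APOE, a lipoprotein, was counted at 479, 558 and 718 CPM and 58.7, 77.2 and 67.8 CPM (3.11 ± 0.25, adjusted p = 3.34e-10), and the amyloid protein of melanosomes PMEL at 6.41, 6.45 and 6.14 CPM and 1.60, 1.23 and 0.638 CPM (2.47). The fusion libraries of all 3 genes were above every YAP5SA library. MYO5A (1.08), OCA2 (1.06), SLC45A2 (0.97), RAB38 (0.91) and RAB27A (0.74) went the same way, and the pigment enzymes TYRP1 (-2.41) and DCT (-1.25), MLPH (-0.95) and CDK2 (-0.56) the other. GPR143 (0.65) and MLANA (0.42) were not called, and TYR had no counts. The 6 melanocyte markers summed to 12.1 to 14.6 CPM with YAP-TFE3 and 25.3 to 26.4 CPM with YAP5SA, with no counts of SOX10 either, and their part in these differences was not tested.

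Antioxidant and iron genes were also higher with the fusion. Of 19 targets and regulators of the factor NRF2 12 were higher with YAP-TFE3 and 2 with YAP5SA (median 0.88). NQO1, a quinone reductase, was counted at 1773, 1839.7 and 1038 CPM with YAP-TFE3 and at 509, 477 and 470.5 CPM with YAP5SA (1.68 ± 0.14, adjusted p = 7.91e-10). OSGIN1 (3.45), the aldo-keto reductase AKR1B10 (5.45), haem oxygenase HMOX1 (1.43) and NFE2L2, which encodes NRF2 (0.84), went the same way. TXNRD1, thioredoxin reductase, went the other (-0.58) and lay above EV by 1.94 with the fusion and 2.52 with YAP5SA. AKR1C1 and AKR1C2 held at most 3 counts in each YAP5SA library, but their sequences are near-identical. In the iron list, of 12 genes 9 were higher with the fusion and 2 with YAP5SA (median 0.71). The exporter SLC40A1 was counted at 1.60, 1.08 and 4.57 CPM and 0, 0 and 0.319 CPM (4.32 ± 0.62, adjusted p = 2.74e-06), with counts in only 1 of the YAP5SA libraries. The difference was 3.45 without YAP-TFE3 replicate 3 and 9.09 without YAP5SA replicate 3, so its size rested on single libraries. The ferroxidase HEPH differed by 3.48. Transferrin, TF, was higher with the fusion than with YAP5SA (1.75) but below EV under both (-2.32 and -4.07). The ferritin chains FTH1 (1.43) and FTL (0.94) were higher, with counts that pseudogene copies make uncertain. TFRC (0.48), IREB2 (0.42), SLC11A2 (0.32) and CP (1.65) were higher, ACO1 (-0.61) and STEAP3 (-1.13) lower, and NCOA4 was not called (-0.13).

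Immediate early genes were divided, also within the FOS and JUN families. Of 17 AP-1 and immediate early genes, 9 were higher with YAP-TFE3 and 4 with YAP5SA (median 0.42). EGR1, a zinc finger factor that answers ERK signalling, was counted at 11.3, 10.2 and 80.7 CPM with YAP-TFE3 and at 3.63, 3.99 and 3.31 CPM with YAP5SA (3.23 ± 0.57, adjusted p = 4.61e-05), and FOS at 3.48, 3.21 and 13.01 CPM and 0.942, 0.997 and 1.20 CPM (2.65 ± 0.42, adjusted p = 9.59e-06). JUN was counted at 23.4, 24.8 and 40.4 CPM and 125, 144 and 119 CPM in the opposite order (-2.13 ± 0.19, adjusted p = 1.20e-09). The groups did not overlap in these 3 genes, but YAP-TFE3 replicate 3 stood far above its fellows for EGR1 and FOS. Without it the differences were 1.56 for EGR1 and 1.67 for FOS, both still called. MAFF (1.72), FOSB (1.16), JUNB (0.62) and the low-count EGR2 (1.55, and 2.30 without YAP5SA replicate 3) and EGR3 (1.54, and 0.63 without YAP-TFE3 replicate 3, not called) stood with EGR1, and MYC (-1.77), FOSL1 (-1.52) and FOSL2 (-0.96) with JUN. ATF3 (0.29), JUND (-0.27) and BATF3 (0.0097) were not called. The AP-1 motif TGANTCA was present on either strand in 5.09% (668 of 13124) of promoter windows, in 6.08% (245 of 4031) of those of genes higher with the fusion and in 4.35% (156 of 3588) of those of genes higher with YAP5SA.

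Feedback genes of the MAPK pathway were mostly higher with the fusion than with YAP5SA. Of 22 members 14 were higher with YAP-TFE3 and 5 with YAP5SA (median 0.81). Against EV the list's median was 0.20 with YAP-TFE3, where 9 were called higher and 2 lower (of all genes 25.8% and 23.5%), and -0.55 with YAP5SA, where 7 were higher and 12 lower (of all genes 22.6% and 21.7%). The ERK phosphatase DUSP6 was counted at 121, 110.1 and 97.9 CPM with YAP-TFE3, at 33.2, 27.3 and 28.8 CPM with YAP5SA and at 96.4 ± 3.03 CPM in EV (1.88 ± 0.13, adjusted p = 1.48e-11). SPRY4, an inhibitor of receptor tyrosine kinase signalling, was counted at 74.4, 73.8 and 73.7 CPM, at 20.02, 21.7 and 19.97 CPM and at 59.9 ± 3.17 CPM in the same order (1.85 ± 0.12, adjusted p = 8.92e-12). In both genes the YAP5SA libraries were the low ones. SPRY1 (2.96), the factors ETV1 (2.40), ETV5 (1.504) and ETV4 (1.46) and the phosphatase DUSP5 (2.00) were also higher with the fusion. DUSP1, a stress-responsive phosphatase, was counted at 4.82, 5.55 and 10.8 CPM with YAP-TFE3 and 37.2, 38.2 and 35.5 CPM with YAP5SA (-2.38 ± 0.19, adjusted p = 1.86e-10), and DUSP10 (-1.19), DUSP8 (-1.09) and DUSP7 (-0.71) went with it.

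Of 8 tested ligands of the EGF family 4 were higher with YAP-TFE3 and 1 with YAP5SA, and its called receptors were higher with YAP5SA. Of all 14 tested members 5 were higher with YAP-TFE3 and 4 with YAP5SA (median 0.30), beside 28.0 and 25.3% of all genes. The ligand EGF was counted at 7.46, 7.28 and 9.28 CPM with YAP-TFE3 and at 0.801, 0.665 and 0.757 CPM with YAP5SA (3.43 ± 0.21, adjusted p = 2.47e-12), and EREG at 3.29, 3.98 and 3.31 CPM and 0.612, 0.237 and 0.438 CPM (3.02 ± 0.37, adjusted p = 2.92e-07). HBEGF was counted at 14.7, 15.5 and 16.5 CPM and 61.8, 60.3 and 44.9 CPM (-1.84 ± 0.14, adjusted p = 6.66e-11). The fusion libraries were the high ones for EGF and EREG and the low ones for HBEGF. NRG1 (0.64) and NRG2 (0.54) were higher with the fusion, and TGFA (0.30), AREG (0.087, and -0.58 without YAP-TFE3 replicate 2) and NRG4 (0.44) were not called. Of the receptors, ERBB3, which binds neuregulins, was counted at 1.12, 1.02 and 1.37 CPM with the fusion and 12.9, 13.7 and 13.03 CPM with YAP5SA (-3.49 ± 0.19, adjusted p = 4.99e-13), EGFR differed by -0.45, and ERBB2 (0.0081) was not called.

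Among genes of PI3K-Akt and insulin signalling 12 of 30 were higher with YAP-TFE3 and 11 with YAP5SA (median 0.37). PDGFB was counted at 0.223, 0.370 and 0.3995 CPM with YAP-TFE3 and at 20.02, 23.0 and 18.1 CPM with YAP5SA (-5.91 ± 0.25, adjusted p = 5.60e-15). KITLG, the ligand of KIT, was counted at 15.2, 10.5 and 8.13 CPM and 0.942, 0.760 and 1.36 CPM (3.44 ± 0.30, adjusted p = 1.37e-09). IGF2 (-2.77) and PDGFC (-1.48) were lower with the fusion, FGF1 (0.99), VEGFC (0.82) and PDGFA (0.78) were higher, and VEGFA (0.59), IGF1 (1.46, between 0.81 and 2.07 with 1 library left out), FGF2 (-0.036) and FGF5 (0.50) were not called. The receptors PDGFRA (1.53), INSR (0.73), PDGFRB (0.48) and FGFR1 (0.48) were higher with the fusion, and MET (-1.30) and IGF1R (-0.31) lower. The regulatory subunit PIK3R1 was counted at 126, 109 and 120.3 CPM with YAP-TFE3, 32.5, 33.8 and 42.2 CPM with YAP5SA and 160.3 ± 14.0 CPM in EV (1.71 ± 0.13, adjusted p = 2.07e-10), so both constructs lay below EV and YAP5SA farther. PIK3R3 (1.83) and the catalytic PIK3CA (1.19) were also higher with the fusion, whereas PIK3CD (-1.09), AKT1 (-0.64) and AKT2 (-0.50) were higher with YAP5SA.

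Of the receptors of the IL-6 cytokine family, LIFR, IL6R, IL6ST and OSMR were higher with the fusion and IL11RA (-0.40) with YAP5SA. The whole JAK-STAT list had 8 members higher and 10 lower of 28, beside 28.0 and 25.3% of all genes. Its median, -0.066, turned to 0.052 under total-count scaling and to 0.057 with the GC and length offsets. LIFR was counted at 665, 472 and 343 CPM with YAP-TFE3, 89.8, 86.3 and 131 CPM with YAP5SA and 343 ± 38.5 CPM in EV (2.27 ± 0.21, adjusted p = 3.93e-09). IL6R (1.73), IL6ST (1.28) and OSMR (1.22) also stood higher, as did the ligand IL6 (1.56) and JAK2 (1.16). IL7R, a receptor of lymphoid cells, was counted at 64.3, 58.5 and 22.5 CPM with YAP-TFE3 and 669, 625 and 569 CPM with YAP5SA (-3.68 ± 0.34, adjusted p = 3.06e-09), against 15.7 ± 5.39 CPM in EV. The ligand IL11 (-2.77), SOCS2 (-1.72), CISH (-0.97) and IL4R (-0.78) were higher with YAP5SA, and STAT3 (-0.092), JAK1 (-0.060), SOCS3 (-0.12) and LIF (-0.28) were not called.

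In the TGF-beta family the called receptors were higher with the fusion, the inhibitors and target genes mostly with YAP5SA, and the ligands were divided. Of 34 members 11 were higher with YAP-TFE3 and 14 with YAP5SA (median -0.19), and of 8 receptors 6 were higher and 0 lower. The 10 ligands held 4 higher and 5 lower, and the 16 inhibitors and targets 1 and 9. BMP4 was counted at 14.0, 14.7 and 26.7 CPM with YAP-TFE3, at 319, 339.6 and 297 CPM with YAP5SA and at 30.5 ± 3.60 CPM in EV (-4.11 ± 0.18, adjusted p = 6.22e-15). GDF6 (-5.37, and -6.09 without YAP-TFE3 replicate 3) and the activin subunit INHBA (-3.55) stood with BMP4, as did the antagonists FST (-3.17) and NOG (-2.37) and the BMP targets ID1 (-1.14), SMAD6 (-0.89) and SMAD7 (-0.44). GDF15, a stress-responsive ligand, went the other way, at 65.5, 73.9 and 16.7 CPM with YAP-TFE3, 2.35, 1.99 and 4.15 CPM with YAP5SA and 0.457 ± 0.0700 CPM in EV (4.18 ± 0.40, adjusted p = 5.26e-09). TGFB3 (0.88), BMP6 (0.82) and TGFB1 (0.42) were higher with the fusion, and BMP2 (-0.39) was not called. The receptors TGFBR3 (1.14), TGFBR2 (1.01), ACVR2A (0.68), TGFBR1 (0.40), BMPR1A (0.37) and ACVR1 (0.27, and -0.033 with the GC and length offsets) were higher, and BMPR2 (0.23) and ENG (0.042) were not called.

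WNT ligands and antagonists were mostly higher with YAP5SA and the receptors with the fusion. Of 30 members 8 were higher with YAP-TFE3 and 14 with YAP5SA (median -0.22). By role, 1 and 6 of 8 ligands, 1 and 7 of 10 antagonists or targets, and 6 and 1 of 12 receptors were higher and lower with the fusion. The ligand WNT7B was counted at 0.0638, 0.154 and 0.0285 CPM with YAP-TFE3, 7.06, 8.55 and 5.10 CPM with YAP5SA and 0.859 ± 0.355 CPM in EV (-6.33 ± 0.47, adjusted p = 8.61e-11), and the antagonist DKK1 at 3.25, 3.64 and 3.77 CPM, 45.5, 45.0 and 28.4 CPM and 15.2 ± 2.89 CPM (-3.47 ± 0.18, adjusted p = 1.00e-13). The YAP5SA libraries were above and the fusion libraries below EV in both genes, and without YAP-TFE3 replicate 2 WNT7B differed by -7.11. The pathway targets AXIN2 (-2.34), NOTUM (-3.23), NKD1 (-1.43), RNF43 (-1.11) and LEF1 (-1.07) and the ligands WNT2B (-0.92), WNT3 (-0.90), WNT9A (-0.86), WNT5B (-0.73) and WNT5A (-0.53) were higher with YAP5SA, and WNT10B (0.78) was higher with the fusion. The receptors FZD4 (1.25), LRP6 (1.22), ROR1 (0.81), FZD6 (0.42), FZD3 (0.38, and -0.10 with the GC and length offsets) and FZD1 (0.35) were higher with the fusion and FZD2 (-1.64) with YAP5SA, and FZD5, FZD7, FZD8, ROR2 and LRP5 were not called.

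**Figure D4:**
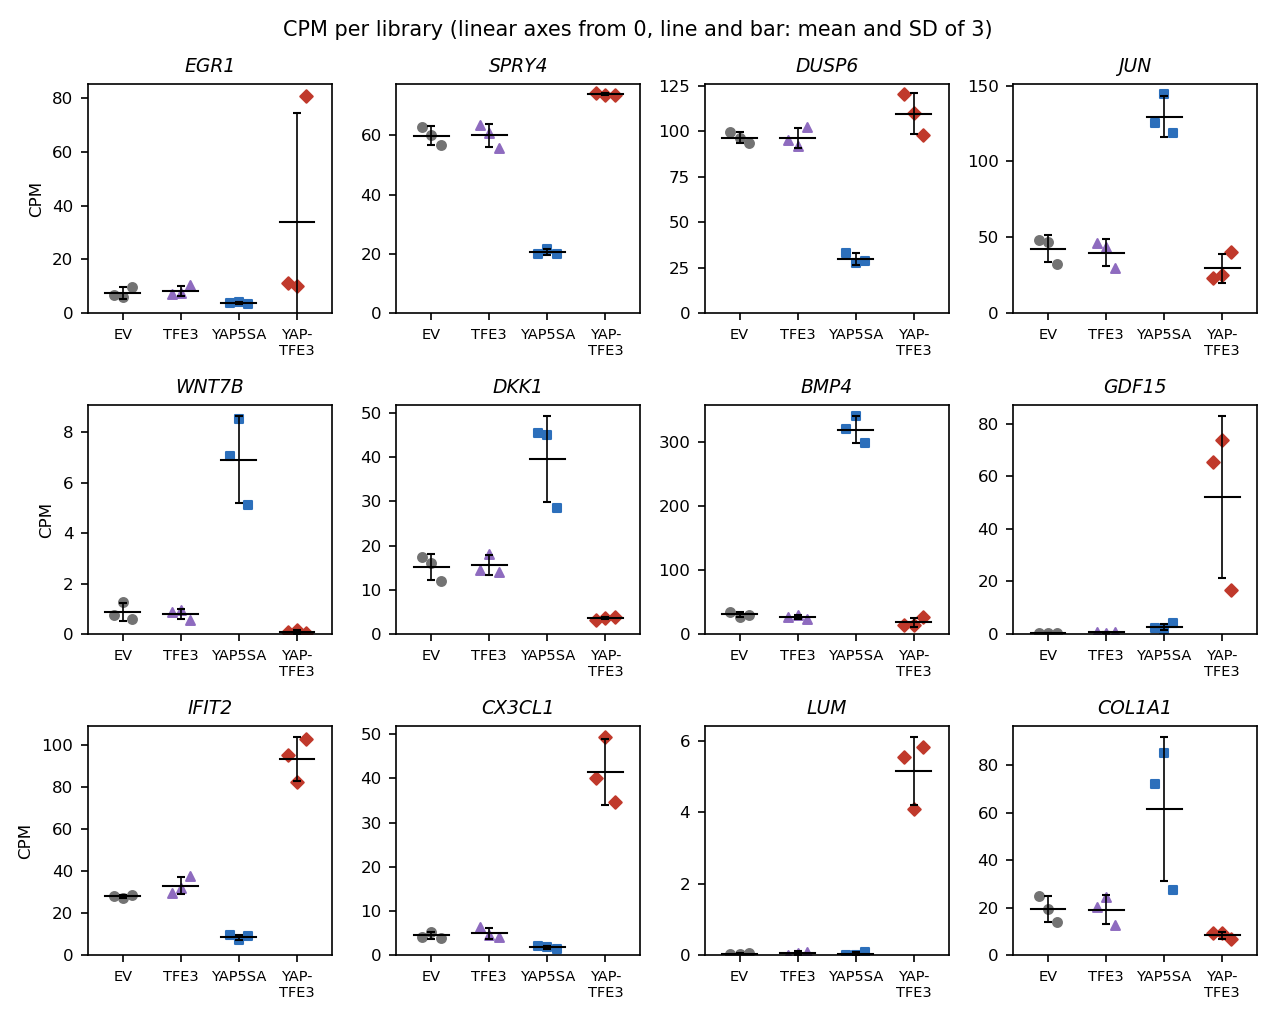
CPM of 12 signalling, interferon and matrix genes (linear y axes from 0) in each of the 3 libraries of EV, TFE3, YAP5SA and YAP-TFE3, with a line at the mean and a bar of 1 SD. GDF15, IFIT2, CX3CL1 and LUM are highest in all 3 YAP-TFE3 libraries, JUN, WNT7B, DKK1, BMP4 and COL1A1 in all 3 YAP5SA libraries, SPRY4 and DUSP6 are lowest with YAP5SA, and EGR1 is high in 1 YAP-TFE3 library.

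Extracellular matrix genes differed in both directions. Of 27 collagens 10 were higher with YAP-TFE3 and 9 with YAP5SA, and of 37 other matrix genes 13 and 13, with medians of -0.19 and -0.18. COL1A1, the main fibrillar collagen chain, was counted at 9.12, 9.35 and 6.74 CPM with YAP-TFE3 and 72.1, 85.3 and 27.3 CPM with YAP5SA (-2.87 ± 0.35, adjusted p = 3.04e-07), while its partner COL1A2 (-0.19) was not called. COL8A1 (-4.14), COL13A1 (-2.57) and COL16A1 (-1.62) stood with COL1A1, and the cartilage collagen COL2A1 (4.51), COL15A1 (4.005), COL14A1 (3.68) and the basement membrane chain COL4A5 (1.34) were higher with the fusion. LUM, a proteoglycan of collagen fibrils, was counted at 5.55, 4.07 and 5.82 CPM with YAP-TFE3 and 0, 0 and 0.0797 CPM with YAP5SA, at least 38.5-fold higher. POSTN, periostin, was counted at 75.2, 49.7 and 49.97 CPM and 1.51, 1.42 and 2.03 CPM (5.12 ± 0.32, adjusted p = 4.63e-12), and SPP1, osteopontin, at 389, 321 and 350.2 CPM and 13.3, 13.9 and 7.89 CPM (4.93 ± 0.25, adjusted p = 8.52e-14). The elastic fibre protein FBLN5 was above EV under both constructs, by 6.39 with YAP-TFE3 and 3.005 with YAP5SA, and differed between them by 3.39. MFAP5 (-6.83, and -8.57 without YAP-TFE3 replicate 2), LOXL1 (-1.92), GPC6 (-1.41) and FBLN1 (-1.33) were the largest in the other direction.

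Of 29 integrins and laminins 14 were higher with YAP-TFE3 and 9 with YAP5SA (median 0.48). The laminin chain LAMA1 was counted at 289, 312 and 367 CPM and 11.5, 10.7 and 12.6 CPM (4.80 ± 0.13, adjusted p = 4.01e-18), and the vitronectin receptor chain ITGB3 at 94.2, 102 and 95.4 CPM and 7.54, 7.88 and 6.14 CPM (3.76 ± 0.14, adjusted p = 1.05e-15). ITGB2, the leukocyte beta chain, was counted at 1.56, 1.94 and 1.97 CPM with YAP-TFE3 and 17.99, 21.3 and 27.1 CPM with YAP5SA (-3.60 ± 0.23, adjusted p = 4.05e-12). ITGA2 (2.01) and ITGA9 (1.95) were higher with the fusion, and ITGB8 (-1.99) and ITGA7 (-0.98) with YAP5SA. Of 26 matrix proteases and their inhibitors 9 were higher with the fusion, 6 were lower and 11 were not called (median 0.00095). Of all genes 28.0% were higher and 25.3% lower. MMP24 (-3.56) and PLAUR, the urokinase receptor (-2.48), were the largest with YAP5SA. By the same rule, ADAM8 (1.99), MMP9 (1.60) and PLAT (1.38) were the largest with the fusion.

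Genes of DNA replication and mitosis were lower with the fusion than with YAP5SA without exception among the called members. Of 52 tested genes 48 were lower, 0 were higher and 4 were not called, with a median of -1.22. RRM2, a subunit of ribonucleotide reductase, was counted at 14.5, 15.9 and 50.9 CPM with YAP-TFE3, at 176, 156 and 143 CPM with YAP5SA and at 118 ± 5.57 CPM in EV (-2.54 ± 0.28, adjusted p = 5.80e-08). The licensing factor CDT1 was counted at 5.68, 6.67 and 16.1 CPM and 38.5, 47.8 and 37.3 CPM (-2.11 ± 0.23, adjusted p = 5.26e-08), and CDC20, which activates the anaphase-promoting complex, at 39.8, 38.6 and 47.0 CPM and 191, 199.8 and 147 CPM (-2.10 ± 0.13, adjusted p = 5.79e-12). All fusion libraries were below all YAP5SA libraries in the 3 genes, with YAP-TFE3 replicate 3 the highest of them. Without it RRM2 differed by -3.38 and CDT1 by -2.74. AURKB (-2.09) came next in rank, and CENPF, CENPE, TTK and RFC3, between -0.21 and 0.16, were not called. Against EV the median was -1.04 with YAP-TFE3, with 48 lower and 0 higher, and 0.15 with YAP5SA, with 4 lower and 18 higher. All cells were confluent, and whether the fusion lines held fewer dividing cells was not measured.

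Of 24 cyclins of G1, CDK inhibitors and p53 targets 7 were higher and 7 lower with the fusion, near the 28.0 and 25.3% of all genes. Their median of 0.22 turned to -0.029 with the GC and length offsets. CCND2 was counted at 0.766, 0.679 and 0.428 CPM with YAP-TFE3, at 2.12, 2.28 and 3.79 CPM with YAP5SA and at 0.0694 ± 0.0314 CPM in EV (-2.14 ± 0.37, adjusted p = 3.73e-05). The libraries of both constructs lay above EV, and those of YAP5SA above those of the fusion. CCND1 was not called (-0.11) and lay above EV under both (1.07 and 1.18). CCND3 (-1.13), CDKN2D (-0.98) and CDKN1A, the gene of p21 (-0.87), were higher with YAP5SA, and the death receptor FAS (2.05), CDKN2B (1.29), GADD45A (1.02) and ZMAT3 (0.85) with the fusion. Cytosolic ribosomal protein genes were lower with the fusion in 37 of 38 cases and higher in 0 (median -0.72). Against EV 37 were lower with YAP-TFE3 and 1 with YAP5SA, where 17 were higher. RPSA (-1.40), RPS2 (-1.22), RPLP0 (-1.16) and RPL7A (-1.13) were the largest. Many ribosomal protein genes have near-identical pseudogenes, and the handling of reads shared with them was not stated.

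Genes of sterol and fatty acid synthesis were mostly lower with the fusion. Of 34 genes 23 were lower and 4 higher with YAP-TFE3 than with YAP5SA (median -0.51). The list's median from EV was -0.19 with YAP-TFE3 and 0.44 with YAP5SA. MSMO1, a sterol demethylase subunit, was counted at 35.8, 37.3 and 90.7 CPM with YAP-TFE3, 149.8, 112 and 110.1 CPM with YAP5SA and 55.5 ± 2.48 CPM in EV (-1.18 ± 0.23, adjusted p = 1.18e-04). The YAP5SA libraries lay above EV, and those of the fusion on both sides of it, with only replicate 3 above. The mevalonate enzymes MVD (-1.18) and MVK (-1.17) were also lower. ELOVL6, a fatty acid elongase (2.27), and STARD4, a sterol transporter (1.74), were the largest in the other direction. In glycolysis and the hypoxia response 19 of 32 genes were lower with the fusion than with YAP5SA and 8 higher (median -0.57). The median of this list lay above EV under both constructs, by 0.28 with YAP-TFE3 and by 0.57 with YAP5SA. LDHA, lactate dehydrogenase, was counted at 554, 558 and 759.8 CPM with YAP-TFE3 and 1752, 1629.7 and 1064 CPM with YAP5SA (-1.25 ± 0.19, adjusted p = 6.00e-06). Carbonic anhydrase CA9 was counted at 0.989, 0.401 and 0.143 CPM and 14.5, 13.1 and 0.159 CPM (-4.18, and -5.07 without YAP-TFE3 replicate 1 and -4.77 without YAP5SA replicate 3), and its groups overlapped, since YAP5SA replicate 3 lay among the fusion libraries. The peptide gene ADM (-1.85) and NDRG1 (-1.57) were lower, and the glucose transporter SLC2A3 (1.23) and the collagen hydroxylase P4HA1 (0.92) were higher. Of 33 genes of mitochondrial biogenesis and respiration 21 were not called, 3 were higher and 9 lower (median -0.10). The coactivator PPARGC1A stood apart, at 10.2, 7.96 and 8.45 CPM with YAP-TFE3 and 0.330, 0.807 and 0.996 CPM with YAP5SA (3.61 ± 0.27, adjusted p = 7.27e-11).

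ATF4, the factor of the integrated stress response, other factors of it and their targets were mostly above EV under both constructs. Of 25 genes of the list 14 were not called between them, and the medians against EV were 1.77 with YAP-TFE3 (24 higher, 0 lower) and 1.77 with YAP5SA (24 higher, 1 lower). The stress factors NUPR1 (2.07) and DDIT3 (1.79) were higher with the fusion, and the amino acid transporters SLC7A3 (-2.24) and SLC7A5 (-0.77), the serine synthesis enzyme PHGDH (-0.93) and asparagine synthetase ASNS (-0.64) with YAP5SA. ASNS was counted at 695, 726 and 432 CPM with YAP-TFE3, 996, 862 and 1028 CPM with YAP5SA and 158 ± 71.2 CPM in EV.

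**Figure D5:**
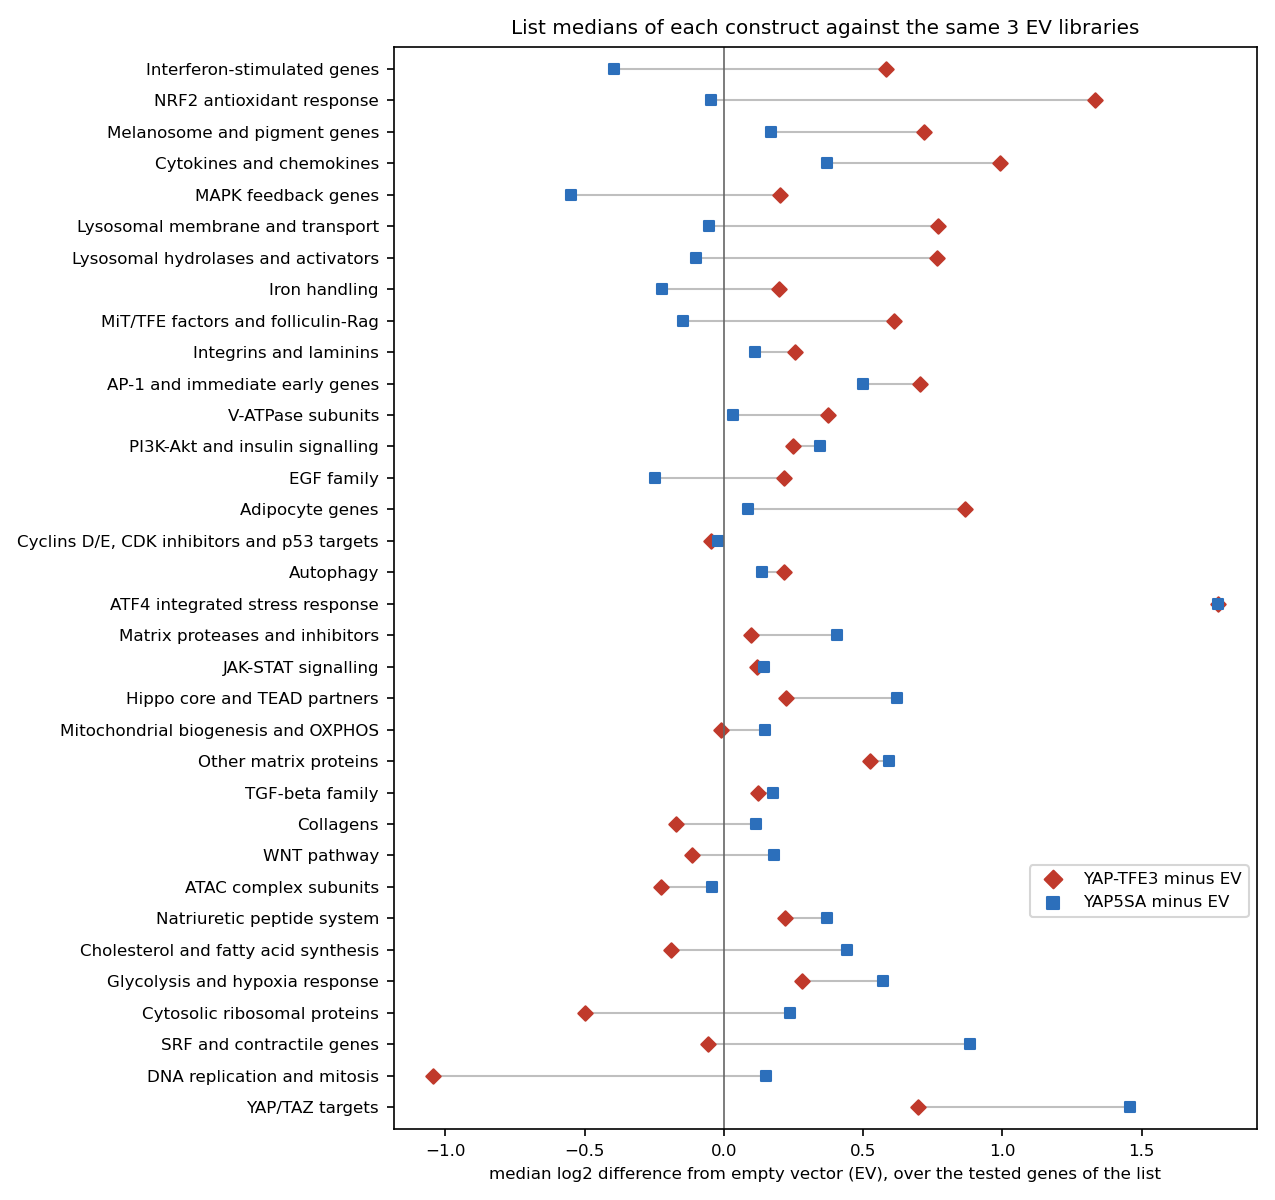
Median log2 difference from EV (x axis) over the tested genes of each of the 34 lists (y axis, same order as in the plot of all list members), with diamonds for YAP-TFE3 and squares for YAP5SA. Both sets of medians use the same 3 EV libraries. The markers lie on opposite sides of 0 for DNA replication and mitosis (-1.04 and 0.15) and nearly coincide for the ATF4 stress response (1.77 and 1.77).

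Interferon-stimulated genes were higher with the fusion, in 24 of 28 cases against 2 lower (median 1.02). IFI27 was counted at 21.9, 31.8 and 72.4 CPM with YAP-TFE3 and at 1.70, 1.42 and 1.28 CPM with YAP5SA (4.85 ± 0.34, adjusted p = 3.24e-11), and IFIT2, which blocks translation of viral RNA, at 95.2, 82.3 and 103 CPM and 9.42, 7.17 and 9.05 CPM, with 28.0 ± 0.710 CPM in EV (3.45 ± 0.16, adjusted p = 2.95e-14). Without YAP-TFE3 replicate 3, IFI27 differed by 4.20. IFI44L (4.28, and 3.44 without that library) and OASL (3.74) were also among the largest, IFITM2 (-0.90) and OAS3 (-0.41) were higher with YAP5SA, and the IFITM genes are near-identical. The list's median from EV was 0.58 with YAP-TFE3 and -0.40 with YAP5SA. Of 25 cytokines and chemokines 14 were higher with YAP-TFE3 and 5 with YAP5SA (median 0.82). CX3CL1 was counted at 40.2, 49.3 and 34.7 CPM with YAP-TFE3, 2.12, 1.71 and 1.40 CPM with YAP5SA and 4.43 ± 0.718 CPM in EV (4.58 ± 0.22, adjusted p = 4.80e-14). IL33 was at least 24.7-fold higher with the fusion, CCL5 (3.46) and IL34 (3.10, and 4.01 without YAP5SA replicate 1) were higher, and IL11 and TNFSF4 (-1.87) were higher with YAP5SA. IL18 held at most 3 counts in each fusion library and was at least 7.88-fold higher with YAP5SA.

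Of 19 adipocyte genes 9 were higher with the fusion and 4 with YAP5SA (median 0.24). The 6 adipocyte markers summed to 62.3 to 100.3 CPM with YAP-TFE3 and 29.4 to 37.2 CPM with YAP5SA, most of them counts of PPARG itself, and their part in the other differences was not tested. PPARG, the adipogenic nuclear receptor, was counted at 97.6, 98.5 and 61.4 CPM with YAP-TFE3, 36.2, 29.0 and 32.0 CPM with YAP5SA and 47.0 ± 4.12 CPM in EV (1.41 ± 0.14, adjusted p = 9.77e-09). The lipid droplet protein PLIN4 (2.62), the factor KLF15 (2.23), the glucose transporter SLC2A4 (1.68) and lipoprotein lipase LPL (1.53) were higher with the fusion, FABP4 was counted at 0.734, 0.648 and 0.485 CPM with YAP-TFE3 and not at all with YAP5SA, and CEBPA (-1.36) and the triglyceride synthase DGAT2 (-1.03) were higher with YAP5SA. Subunits of the ATAC histone acetyltransferase complex went both ways, with 4 higher and 7 lower of 13 (median -0.28). ZZZ3 (0.72), KAT2B (0.67), DR1 (0.61) and MBIP (0.45) were higher with the fusion, WDR5 (-0.70), KAT2A (-0.63), POLE3 (-0.43), TADA2A (-0.42), TADA3 (-0.35), CHRAC1 (-0.34) and YEATS2 (-0.28) with YAP5SA, and SGF29 (-0.28) and KAT14 (0.020) were not called.

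The methods describe both Hisat2 alignment and Salmon quantification summed to genes, and which of them gave these whole-number counts, and with what use of strand, was not stated. Counts of genes that overlap another annotated gene are therefore uncertain. Of the 347 genes named here with the annotation at hand, 104 overlap another gene on the same strand and 131 only on the opposite strand. Among those given with a value for every library, WWTR1, LCP1, TGFB2, TEAD1, TAGLN, CLCN5, ATP6V0D2, CTSD, APOE, PMEL, EGF, ERBB3, LIFR, GDF15, ITGB3, ITGB2, CCND2, LDHA, ASNS, IFIT2 and PPARG are in the former group. Of the 310 named genes that were called, 21 lost the call when 1 library was left out. For LATS2, JUNB and NRG2 this happened without YAP5SA replicate 1 or YAP-TFE3 replicate 3, with largest adjusted p of 0.107, 0.168 and 0.109. For ACTA2 this happened without YAP5SA replicate 2 or YAP-TFE3 replicate 2, with a largest adjusted p of 0.0651. For TFEB, FZD6 and MBIP this happened without YAP5SA replicate 2 or YAP-TFE3 replicate 1, with largest adjusted p of 0.0959, 0.0629 and 0.0690. For CTSZ and OAS3 this happened without YAP5SA replicate 1 or 2 or YAP-TFE3 replicate 1 or 2, with largest adjusted p of 0.166 and 0.274. For RAB38 and ASNS this happened without YAP5SA replicate 1 or 3 or YAP-TFE3 replicate 3, with largest adjusted p of 0.158 and 0.174. For FTH1 this happened without YAP5SA replicate 1, with a largest adjusted p of 0.0651. For EGR2, FZD3 and TADA3 this happened without YAP5SA replicate 1 or 2 or YAP-TFE3 replicate 3, with largest adjusted p of 0.116, 0.0971 and 0.129. For VEGFC this happened without YAP5SA replicate 3 or YAP-TFE3 replicate 3, with a largest adjusted p of 0.119. For IL11RA and TGFBR1 this happened without YAP5SA replicate 2 or YAP-TFE3 replicate 1 or 2, with largest adjusted p of 0.127 and 0.169. For SMAD7 this happened without YAP5SA replicate 3 or YAP-TFE3 replicate 1 or 3, with a largest adjusted p of 0.308. For BMPR1A this happened without YAP5SA replicate 2 or YAP-TFE3 replicate 3, with a largest adjusted p of 0.0965. Genes at the floor of 3 counts enter the list medians with fitted values, and no list median moved when their 22 values were set at their bounds.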

How the data were processed

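Poly(A) RNA of SW872 lines was prepared as stranded TruSeq libraries and sequenced in paired ends by the authors, who aligned reads to hg38 with Hisat2 within bcbio-nextgen and also quantified transcripts with Salmon, summed to genes by tximport. The deposited files hold raw counts per Ensembl gene, made by the authors, 1 file per library. Their values are whole numbers, and which route gave them, and with what use of strand, is not given in the sources used here. Groups follow the sample titles.

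Genes averaging 5 or more counts across both groups of the comparison were fitted in edgeR 4.0.16 (R 4.3.3) on all 24 libraries, with 1 mean per group, TMM scaling, the quasi-likelihood F test and Benjamini-Hochberg adjustment, and were called at an adjusted p under 0.05. The procedure was tested on simulated data. SE values are the log2 difference over the square root of F. Names and positions came from GENCODE 44 (GRCh38) and promoters from a RefSeq table (GRCh38.p14), using the first start listed, since the table gives several for many genes. A fold against a group with at most 3 counts in each library is a bound computed at 3 counts. Wilson intervals cover counting error only.

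The members and gene lists were chosen with earlier results of these data known. Genes were named by rank within lists, with up to 4 called members in each direction and a mean of at least 50 counts, all members of lists of at most 16 genes, ligands, receptors and factors, and the 12 largest differences in each direction. Beyond that rule 54 genes were named after their values were seen, and some genes that the rule picks are not reported here. Alternatives covered DESeq2 1.42.0, scaling, filters, the test size, the samples fitted, depth, the replicate block, each library left out, and, chosen after seeing the data, offsets for GC content and length. Replicates are separate stable transductions per the methods, and the labels only number them. The p-values rest on a spread between transductions that was estimated over all 24 libraries. Fitted on the 6 libraries alone, 8475 genes were called, with 78.4% of the main calls among them.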

Additional observations from a re-analysis of the deposited data

How the results depend on the processing

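The count of genes called between YAP-TFE3 and YAP5SA ranged from 8305 with counts thinned to the smallest library to 10983 with GC and length offsets over the settings that test for any change, and DESeq2 called 10532. Leaving out each library in turn gave 9428 to 10969. Tested against an absolute log2 change of 1, 1979 genes were called (1127 higher, 852 lower). The same test called 1564 (1288, 276) for YAP-TFE3 against EV, 1475 (1036, 439) for YAP5SA against EV and 1469 (1225, 244) for YAP-TFE3 against TFE3. CACGTG then stood in 6.90% of the genes higher with YAP-TFE3 and GGAATG in 14.8% of those higher with YAP5SA. The share of each motif on the opposite side was not computed under this test. The replicate numbers did not pair the libraries (correlations of deviations -0.037, 0.083 and -0.086), and with the replicate as a block 10808 genes were called, 98.9% of the main calls among them. Scaling by total counts moved the median of all genes by 0.12 and the higher share of the calls from 52.5 to 62.3%, gave 6683 genes lower with YAP5SA than EV, and turned the medians of the Hippo (0.029) and JAK-STAT (0.052) lists. Under it the MiT/TFE median was 0.83, autophagy 0.21, TGF-beta -0.074, WNT -0.097, integrins and laminins 0.60, iron 0.82 and ATAC -0.16. With no filter beyond 1 count the medians were 0.13 for autophagy, 0.52 for PI3K-Akt, -0.067 for TGF-beta, -0.44 for WNT, 0.25 for integrins and laminins and 0.23 for proteases. At a mean of at least 20 counts they were 0.59 for MiT/TFE, -0.72 for the natriuretic list and -0.31 for WNT. With GC and length offsets they were -1.07 for YAP/TAZ targets, -0.35 for Hippo, 0.24 for PI3K-Akt, 0.057 for JAK-STAT, -0.11 for WNT, 0.25 for integrins and laminins and -0.029 for cyclins, and MOB1A (-0.055), ATP6V1G1 (-0.039), ACVR1 (-0.033) and FZD3 (-0.098) turned. Over the libraries left out, medians ran from 0.35 to 0.47 for integrins and laminins, 0.77 to 1.25 for cytokines, 0.082 to 0.13 for autophagy, -0.28 to -0.16 for WNT, 0.68 to 0.86 for melanosome genes and 0.16 to 0.38 for PI3K-Akt. Of 32 single-gene differences from EV or TFE3, none turned. Apart from the test against a log2 change of 1, the call changed for AXL with YAP-TFE3 (0.35 without YAP-TFE3 replicate 2) and ASAH1 with YAP5SA (-0.27 with GC and length offsets). The causes were not tested. Within the other settings each list median moved by no more than the replicate SD. In every setting, a change of direction of a list median within that SD was not counted as a turn. Genes with a few counts per library were not resolved at this depth.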
